A study of Mus musculus with 278 samples.

Results

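The adult luminal cells of the mouse mammary gland were divided into mature luminal (ML)-like and luminal progenitor (LP)-like cells by the genes they express, and the rest of the transcriptome was compared between both classes. Of 43 cells titled as adult luminal cells, 41 had at least 100000 reads on annotated nuclear, non-ribosomal genes and were kept. A cell was placed by counting how many of 8 ML genes (Prlr, Cited1, Foxa1, Areg, Stc2, Ly6d, Esr1 and Pgr) and of 8 LP genes (Kit, Cd14, Elf5, Aldh1a3, Trf, Wfdc18, Muc15 and Spp1) reached 10 CPM (counts scaled to a common library total). A cell was ML-like when its ML count was higher by 2 or more, LP-like when its LP count was higher by 2 or more, and otherwise unclassed. This gave 26 ML-like cells (63.4% of 41, exact 95% binomial interval 46.9 to 77.9%), 8 LP-like cells (19.5%, 8.82 to 34.9%) and 7 unclassed cells (17.1%, 7.15 to 32.1%), out of 278 cells in the whole series. The cells came from adult FVB/NJ mice with no treatment, were sorted from pooled animals as lineage-negative CD29-low CD24-positive cells, and were sequenced one by one after capture on Fluidigm C1 microfluidic chips. The series also holds 112 adult basal cells, sorted as CD29-high CD24-positive, of which 81 passed the read minimum, and 123 epithelial cells from pregnant mice, of which 78 passed. No label ties a cell to an animal, so each class counts as 1 sample. No p-value is therefore given, and every interval covers counting error only, in PCR reads without molecular identifiers.

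The luminal layer of the mammary duct holds hormone-sensing ML cells, which carry the estrogen, progesterone and prolactin receptors and signal to their neighbours by secreted factors such as amphiregulin. LP cells largely lack the steroid hormone receptors, depend on the transcription factor Elf5 and give rise to the alveolar cells that make milk. The receptor tyrosine kinase Kit and the innate immune receptor Cd14 mark LP cells in sorting and expression studies.

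**Figure D1:**
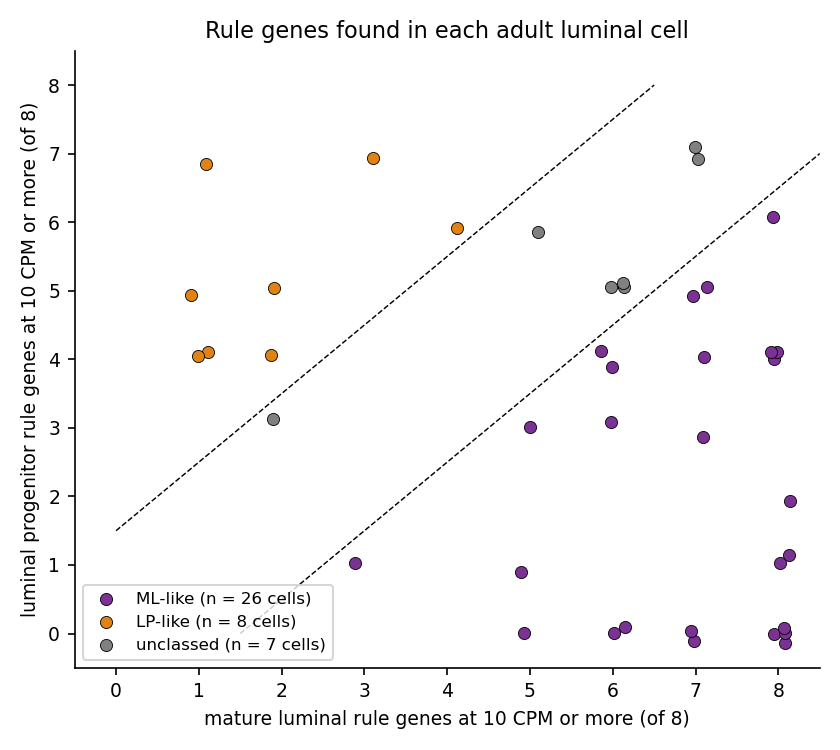
Each point is 1 of the 41 adult luminal cells, placed by its number of ML rule genes (x axis, of 8) and LP rule genes (y axis, of 8) at 10 CPM or more, with a small random offset so that points do not hide each other. The dashed lines mark the limits of the rule. All 8 LP-like cells had 4 or more LP genes, 11 ML-like cells had all 8 ML genes, and 6 of the 7 unclassed cells had 4 or more genes of each kind.

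The classes were cut from a score, so cells near the limit were few genes away from another class. There were 7 ML-like cells with a difference of exactly 2 genes and 2 LP-like cells with the reverse difference of 2. Among the unclassed cells, 3 were 1 gene ahead on the ML side, 2 were level and 2 were 1 gene ahead on the LP side. ML-like cells carried a median of 7 ML genes (range 3 to 8) and 1.5 LP genes (0 to 6). LP-like cells carried 1.5 ML genes (1 to 4) and 5 LP genes (4 to 7). These counts follow from the rule.

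Several cells stood apart from the rest. At least 3 markers of another cell type reached 10 CPM in 4 ML-like cells, namely cell 35 with 9 basal markers, cell 34 with 3 basal markers, and cells 5 and 26 with 6 fibroblast markers each. The same was true of 2 LP-like cells, cell 33 with 5 and cell 11 with 4 fibroblast markers, and of unclassed cells 27 and 43. LP-like cell 17 and unclassed cell 15 had 1376 and 1475 detected genes, which is under the 1500 that the study required of an adult luminal cell. In these cells 34.4% and 32.7% of the reads were mitochondrial, against a median of 6.43% in ML-like, 8.22% in LP-like and 7.46% in unclassed cells. Reads per cell ranged from 173195 to 1006438 (median 638488) in ML-like cells and from 192687 to 833355 (median 399734) in LP-like cells. After each cell was thinned to 100000 reads, a median of 3837.5 genes was read in ML-like cells (range 2237 to 5597) and 3355.5 in LP-like cells (1168 to 4269), so the ranges overlapped. Values without the cells that carry other markers are given beside the results they touch.

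The genes that chose the classes showed how sharply each one separated them, which is a description and not a finding. Here and below, CPM values use all kept reads of a cell, and a number of cells with a read is taken at 100000 reads per cell unless no read was found at any depth. Prlr, the prolactin receptor, ran from 150 to 18121 CPM in ML-like cells (median 5902) and from 11.4 to 682 CPM in LP-like cells (median 77.5). Areg, the gene of amphiregulin, ran from 68.2 to 4877 CPM in ML-like cells and did not exceed 46.3 CPM in LP-like cells. It was the only rule gene whose classes did not overlap. Esr1 and Pgr, the estrogen and progesterone receptors, had medians of 68.3 and 61.0 CPM in ML-like cells and 0 and 0.60 CPM in LP-like cells, and each was at 0 in some ML-like cells. Among the LP genes, Wfdc18, a small secreted WAP-domain protein, ran from 4152 to 32747 CPM in LP-like cells and from 0 to 7843 CPM in ML-like cells. Kit ran from 0 to 771 CPM in LP-like cells (median 144) and had a read in 5 of 8 of them, in 6 of 7 unclassed and in 2 of 26 ML-like cells. Elf5 and Aldh1a3, an aldehyde dehydrogenase of progenitors, had reads in 4 and 2 of the 8 LP-like cells. Cell 17 alone held 93.5% of the Elf5 reads of the LP-like class. Cell 26 held 68.6% of the Aldh1a3 reads of the ML-like class. Trf, Wfdc18, Muc15 and Cd14 were read in 8, 8, 7 and 6 of the 8 LP-like cells.

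Outside the 16 rule genes, many more genes were higher in ML-like than in LP-like cells. A gene was called when its summed CPM differed by at least 4-fold and its share of cells with a read, at 100000 reads per cell, differed by at least 30 percentage points in the same direction. Of 11419 genes with at least 1 CPM in 3 or more of the cells, 693 (6.07%) were called higher in ML-like cells and 124 (1.09%) in LP-like cells. The median log2 ratio of ML-like over LP-like cells over all genes with a ratio was 0.55, so ratios are read against that offset, which lay between 0.40 and 0.73 when the classes were scaled in other ways. No tested gene had CPM ranges that stayed apart between all cells of both classes (0% in each direction). Without the 6 classed cells that carry markers of another type, 4 genes (0.0383%) stayed apart with ML-like cells higher and 3 (0.0288%) with LP-like cells higher. Without the same cells, 1131 of 10431 genes (10.8%) were called higher in ML-like and 150 (1.44%) in LP-like cells, which included 578 of the 693 and 64 of the 124. The median log2 ratio over all genes was then 0.94, and ratios given without these cells are read against that higher offset.

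**Figure D2:**
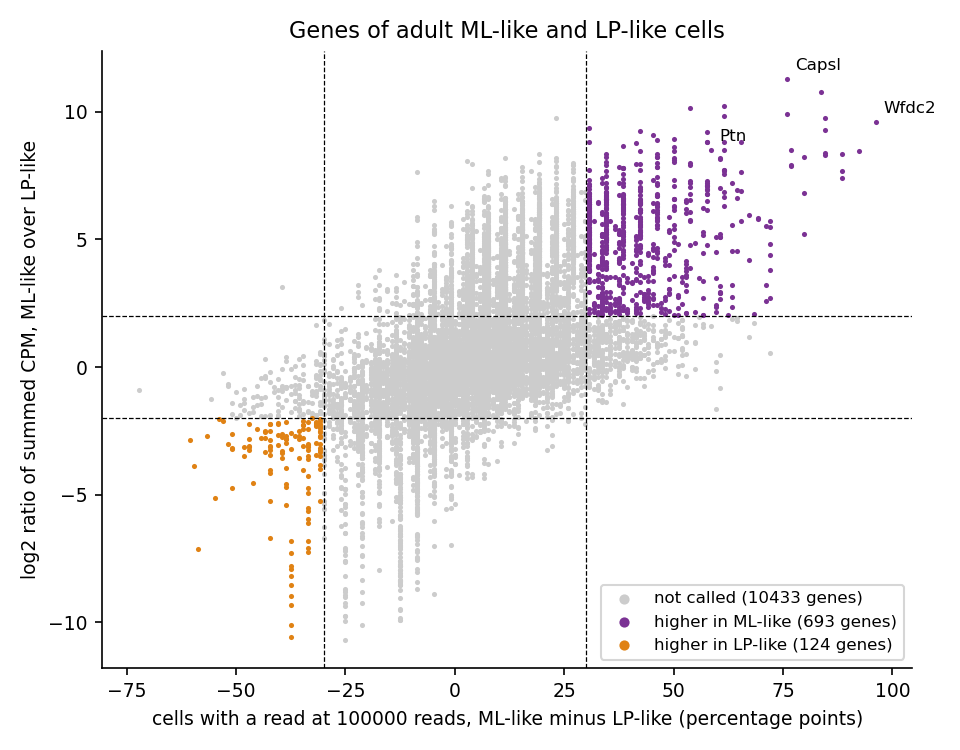
Each point is a gene, with the difference in the share of cells that had a read at 100000 reads (x axis, ML-like minus LP-like, percentage points) and the log2 ratio of summed CPM (y axis). Genes past both dashed limits, 4-fold and 30 points, are coloured; 693 lie on the ML-like side and 124 on the LP-like side. Ratios against a class at 0 are drawn at the limit set by 3 reads over that class.

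The genes with the strongest ML-like signal were picked for reads in most ML-like cells and for the largest ratios. Their near absence from LP-like cells therefore follows from the choice. Among called genes with at least 100 CPM in the higher class and a read in at least 75% of its cells, the 12 with the largest ratios were Capsl, Tlcd4, Slpi, Cav2, Wfdc2, Phyh, Ptn, Gm4951, Tbx3, Cldn10, Atp2c1 and Wnt5a. A read was found in 20 to 25 of the 26 ML-like cells for each of them. All 12 remained called without the cells that carry other markers, with log2 ratios of 7.27 to 10.61.

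Secreted signals were represented by Ptn and Wnt5a. Ptn, which encodes the heparin-binding growth factor pleiotrophin, ran from 2.30 to 6988 CPM in ML-like cells with a median of 2467. In LP-like cells it was at 0 in 5 cells, and was 5.19, 14.3 and 48.7 CPM in cells 17, 25 and 32. Only ML-like cell 26 lay inside the LP-like range, and the log2 ratio of summed CPM was 8.51 (7.96 to 9.12), or 10.46 without LP-like cell 32. Wnt5a, a non-canonical Wnt ligand, ran from 0 to 1008 CPM in ML-like cells (median 220) and had no read in LP-like cells, which gives a log2 ratio of at least 8.29 against a limit of 3 reads over the class. The transcription factor Tbx3, a T-box gene needed for mammary development, ran from 0 to 874 CPM in ML-like cells (median 199) and was likewise without a read in LP-like cells (at least 8.46).

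A pair of secreted WAP-domain protease inhibitors, encoded close together on chromosome 2, followed the same pattern. Slpi, the secretory leukocyte protease inhibitor, at chr2:164354070-164356507, ran from 0 to 6589.5 CPM in ML-like cells with a median of 663. It was at 0 in 6 LP-like cells and at 14.3 and 1.20 CPM in cells 25 and 33, and the log2 ratio was 9.92 (8.79 to 11.36), or 12.36 without cell 25. At 100000 reads it had a read in 23 of 26 ML-like cells (88.5%, 69.8 to 97.5%) and in 1 of 8 LP-like cells (12.5%, 0.316 to 52.6%). Slpi was not particular to the luminal cells, since 76 of 81 basal cells (93.8%, 86.2 to 98.0%) also had a read. Wfdc2, at chr2:164562715-164568510, ran from 0 to 1920 CPM in ML-like cells (median 402) and had no read in any LP-like cell (log2 ratio at least 9.61). The only ML-like cell without Wfdc2 was cell 26, and 6 of 7 unclassed and 20 of 81 basal cells had a read. The third WAP-domain gene here, the rule gene Wfdc18, was higher in LP-like cells.

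The other ML-like genes have varied roles. Cldn10, a claudin that forms ion-selective pores in tight junctions, ran from 0 to 633 CPM in ML-like cells (median 290) and had no read in LP-like cells (log2 ratio at least 8.37). Cav2, a caveolin, ran from 0 to 741 CPM in ML-like cells (median 192) and did not exceed 2.43 CPM in LP-like cells. Atp2c1, the calcium and manganese pump of the Golgi, had a median of 86.5 CPM in ML-like cells and at most 4.93 CPM in LP-like cells. The peroxisomal enzyme gene Phyh, whose product breaks down branched fatty acids, had a median of 352 CPM in ML-like cells and no read in LP-like cells (at least 9.30). Capsl, which encodes a calcium-binding calcyphosine-like protein, ran from 0 to 4076 CPM in ML-like cells (median 461). A single read in cell 25 was all that LP-like cells held, so its log2 ratio of 11.29 has an interval of 8.81 to 16.59 and is at least 9.56 without that cell. Tlcd4, a TLC-domain membrane protein gene, ran from 0 to 5018 CPM in ML-like cells (median 359) and was read in 1 LP-like cell, at 10.4 CPM. It was read in all 7 unclassed cells but in 1 of 81 basal cells, whereas Gm4951 was read in 20 ML-like cells, 2 unclassed cells and 1 basal cell.

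On the LP-like side the leading genes were shared with part of the ML-like cells and the ratios were smaller. The classes were not cut alike: 9 of 26 ML-like cells had 4 or more LP rule genes. Only 1 of 8 LP-like cells had 4 or more ML rule genes. The part of the rule and of the class sizes in this contrast was not tested. The 12 genes chosen by the same limits were Zswim6, Lratd2, Mpzl1, Irs2, Ogfrl1, Auts2, Pdlim1, Dock9, Emp2, Vdr, Tm4sf1 and Lcn2, with log2 ratios of -3.48 to -2.23. Each had a read in 6 to 8 of the 8 LP-like cells and in 6 to 15 of the 26 ML-like cells. Only 18 called genes met the limits on level and share, against 85 on the ML-like side. Without the cells that carry other markers, 8 of the 12 remained called, and Lratd2 (-1.76), Mpzl1 (-1.71), Dock9 (-2.94) and Vdr (-2.62) no longer met both limits.

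Lcn2, which encodes the siderophore-binding defence protein lipocalin 2, at chr2:32384637-32387739, was the most abundant. In LP-like cells it measured 110, 374, 1334, 1778, 2400, 3784, 6090 and 7401 CPM, so every cell held it. In ML-like cells it ran from 0 to 2474 CPM with a median of 39.2, which overlapped most of the LP-like range (log2 ratio -2.23, -2.28 to -2.19). All 7 unclassed cells and 78 of 81 basal cells had a read as well. The classes differed in that a part of the ML-like cells held little or no Lcn2.

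Vdr, the vitamin D receptor, a nuclear receptor, was at 0 in LP-like cell 22 and at 244, 275, 289, 682, 792, 804 and 3202 CPM in the other 7. In ML-like cells it ran from 0 to 974 CPM with a median of 1.51 (log2 ratio -2.60, -2.69 to -2.50). Ogfrl1 was at 0 in LP-like cell 17 and between 153 and 949 CPM in the other 7, against a median of 0 and a maximum of 923 CPM in ML-like cells. For both genes most LP-like cells lay above the bulk of the ML-like cells, with a few ML-like cells as high.

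Tm4sf1, a tetraspanin-like surface protein gene at chr3:57285611-57387736, was at 0 in LP-like cell 3 and between 67.9 and 2711 CPM in the other 7, with a median of 439. In ML-like cells it ran from 0 to 1749 CPM (median 1.30), and the highest of them was cell 35, which carries basal markers, while 69 of 81 basal cells had a read. Irs2, the insulin receptor substrate that relays insulin and IGF signals, had a median of 100 CPM in LP-like cells (0 to 492) and 0 in ML-like cells (0 to 170). Dock9, an activator of the small GTPase Cdc42, had a median of 200.5 CPM in LP-like cells (0 to 2616) and 1.81 in ML-like cells (0 to 602). Zswim6 had the largest ratio (-3.48) and medians of 59.9 and 0 CPM, but LP-like cell 25 held 50.9% of its LP-like reads. Emp2, a tetraspan membrane protein gene, depended on 1 cell: cell 17 held 90.0% of its LP-like reads, at 6243 CPM, and without that cell the log2 ratio turned to 0.61. The remaining genes, Lratd2, the adhesion gene Mpzl1, the chromatin regulator gene Auts2 and the cytoskeletal adaptor gene Pdlim1, had LP-like medians of 62.6, 53.9, 28.5 and 21.0 CPM and ML-like medians of 0.

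Leaving out 1 cell changed several calls. Without LP-like cell 22 Dock9 (-1.74), without cell 33 Tm4sf1 (-1.68) and without cell 28 Lcn2 (-1.94) fell under the 4-fold limit. Ratios also moved by more than 1.5-fold without cell 25 for Zswim6 (-2.60), without cell 11 for Lratd2 (-2.28), and without cell 17 or 32 for Pdlim1 (-2.05 and -2.01). On the other side, leaving out 1 ML-like cell raised the difference for Zswim6 (-4.56 without cell 35), Mpzl1 (-4.62, cell 6), Irs2 (-3.77, cell 19), Ogfrl1 (-3.67, cell 38) and Vdr (-3.21, cell 38). Among the ML-like genes, Cav2, Tlcd4 and Atp2c1 had reads in 1 LP-like cell each, and without it their ratios were at least 8.02, 10.10 and 7.58. All 12 ML-like genes kept their calls whichever cell was left out. Of the 12 called LP-like genes that appear in the gene lists below and are not among these named genes, 10 lost their call when some LP-like cell was left out, the exceptions being Ano3 and Btn1a1. They fell under the 4-fold limit for Csn2 without cell 3 (-1.48), Muc4 and Plb1 without cell 11 (-1.87 and -1.71), Lbp without cell 25 (-1.42), Pard6b without cell 33 (-1.73) and Ldhb without cell 22 (-1.85). Lalba and Muc1 without cell 17 (-2.36 and -2.23), and Cd74 and Fabp4 without cell 32 (-3.56 and -6.28), stayed past that limit but no longer differed by 30 percentage points in the share of cells with a read. On the ML-like side, Socs2 without ML-like cell 7 (1.95) and Stat5a without LP-like cell 33 (2.00 after rounding) fell under the limit, and Fgb and Hba-a1 each lost the call when any 1 of 8 ML-like cells was left out. Of all 39 called genes in the lists that are not among the 24 named, 15 lost the call and 28 moved by more than 1.5-fold without some cell. Those that moved included Cd200 (6.53 without LP-like cell 32), Fgfr2 (6.28, cell 11), Iigp1 (10.37, cell 33) and Btn1a1 (-4.16 without ML-like cell 13).

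**Figure D3:**
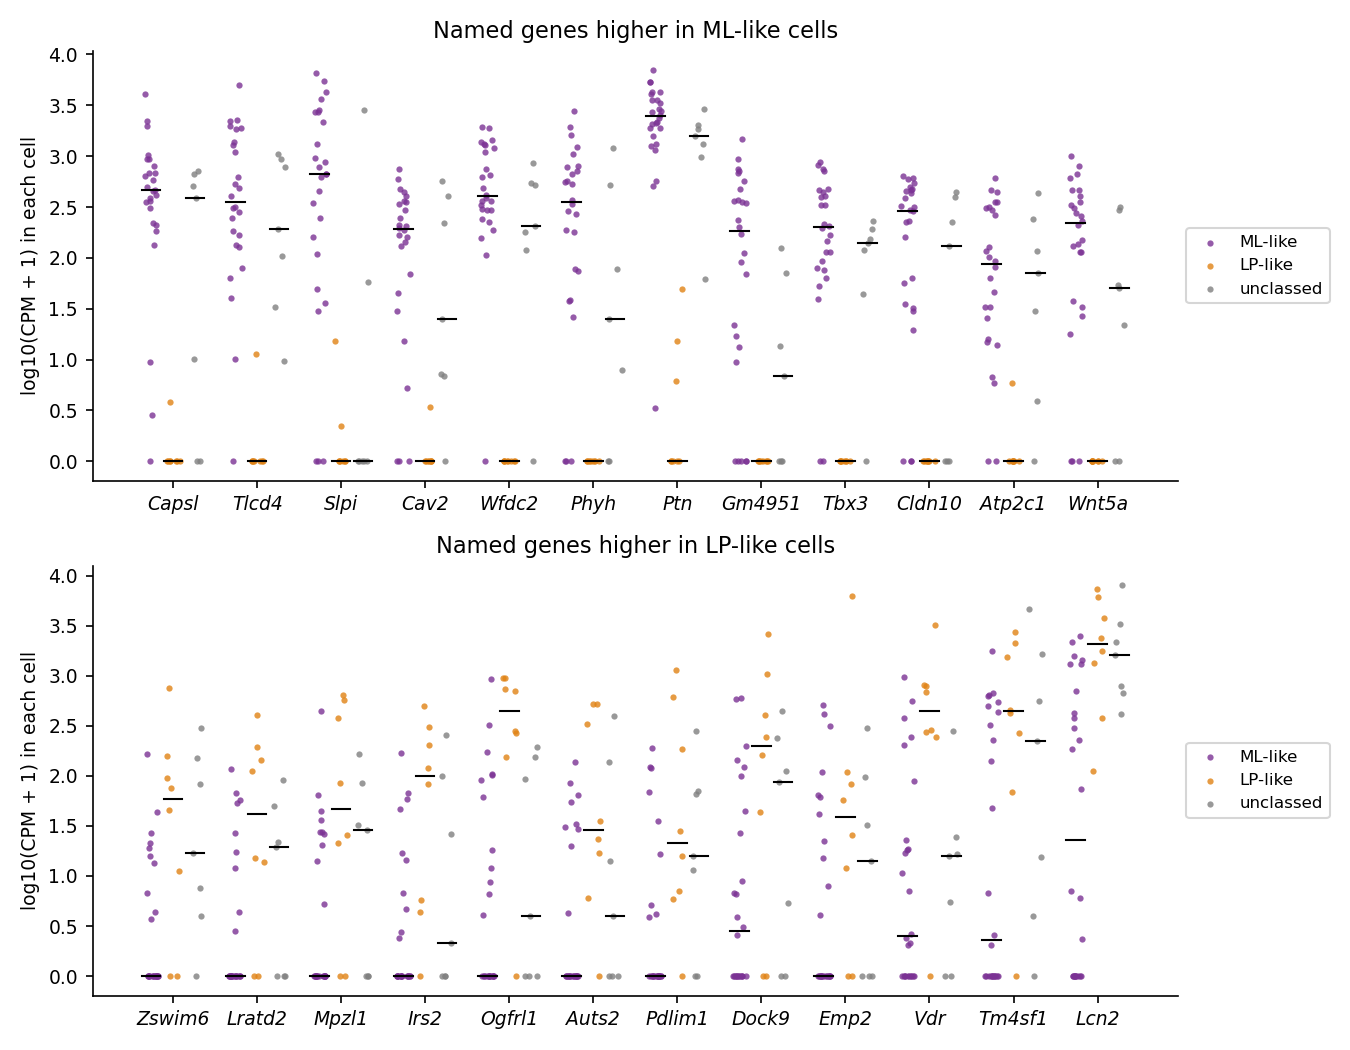
Each point is the log10(CPM + 1) of a gene in 1 cell, by class (26 ML-like, 8 LP-like and 7 unclassed cells), and black bars are medians. In the upper panel most LP-like points sit at 0 and none exceeds the 48.7 CPM of Ptn in cell 32, while in the lower panel many ML-like cells overlap the LP-like cells. Unclassed cells other than cell 15 lie with the ML-like cells for Ptn and Tlcd4. For Lcn2 the unclassed cells lie within or above the LP-like range, most of which the ML-like cells overlap.

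The promoter windows of both WAP-domain genes and of a pair of LP-like genes are shown because these genes were called in opposite directions. They were picked after their values were seen. Each runs from 250 bases before to 50 after the annotated start, from RefSeq on GRCm38.p6, 5′ to 3′ on the strand of the gene. Capitals mark any match, on either strand, to the ETS core GGAAGT, the nuclear receptor core AGGTCA, the STAT palindrome TTCNNNGAA, the forkhead core TGTTTAC or the GATA core AGATAA, which are binding sites of factor families with luminal members. The windows are Slpi at chr2:164356458-164356757 (minus strand), Wfdc2 at chr2:164562465-164562764 (plus strand, the first of 2 listed starts), Lcn2 at chr2:32387690-32387989 (minus strand) and Tm4sf1 at chr3:57301939-57302238 (minus strand). The Tm4sf1 window is the only 1 listed for that gene, and it lies inside the gene span given above, not at its end.
Slpi: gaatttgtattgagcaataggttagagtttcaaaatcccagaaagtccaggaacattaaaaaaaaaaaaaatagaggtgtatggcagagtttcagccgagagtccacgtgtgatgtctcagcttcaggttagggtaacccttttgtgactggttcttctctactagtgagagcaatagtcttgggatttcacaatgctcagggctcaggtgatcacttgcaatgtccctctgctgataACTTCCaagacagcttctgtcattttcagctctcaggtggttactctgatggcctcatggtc
Wfdc2: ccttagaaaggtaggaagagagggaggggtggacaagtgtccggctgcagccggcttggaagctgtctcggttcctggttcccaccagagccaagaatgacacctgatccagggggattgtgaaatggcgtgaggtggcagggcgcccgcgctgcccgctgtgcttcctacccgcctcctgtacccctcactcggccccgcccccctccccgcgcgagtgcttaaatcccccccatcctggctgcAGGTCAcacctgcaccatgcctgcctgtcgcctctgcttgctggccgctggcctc
Lcn2: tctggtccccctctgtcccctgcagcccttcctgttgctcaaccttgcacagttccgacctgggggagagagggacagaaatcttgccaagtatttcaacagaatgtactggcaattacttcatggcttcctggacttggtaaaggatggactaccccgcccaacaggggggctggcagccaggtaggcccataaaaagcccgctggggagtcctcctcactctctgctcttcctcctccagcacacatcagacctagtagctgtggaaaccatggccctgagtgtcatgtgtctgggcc
Tm4sf1: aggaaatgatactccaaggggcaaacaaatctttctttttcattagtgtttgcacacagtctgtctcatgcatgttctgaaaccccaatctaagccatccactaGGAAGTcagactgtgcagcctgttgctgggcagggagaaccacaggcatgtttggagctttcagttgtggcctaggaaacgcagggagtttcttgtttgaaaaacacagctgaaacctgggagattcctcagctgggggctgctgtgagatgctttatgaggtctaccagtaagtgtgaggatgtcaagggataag
Slpi held an ETS core on the opposite strand at position -12 from the start, Wfdc2 a nuclear receptor core at -5 and Tm4sf1 an ETS core at -146, and the Lcn2 window held none of the 5 motifs. A window was available for 8909 of the 11419 genes tested, for 562 of the 693 higher in ML-like and for 92 of the 124 higher in LP-like cells. The ETS core was found in 28.5% of all windows, 28.1% of those of ML-like genes and 29.3% of those of LP-like genes. The nuclear receptor core was found in 12.2%, 11.7% and 14.1%, the STAT palindrome in 6.95%, 6.23% and 10.9%, and the GATA core in 6.02%, 7.30% and 9.78%. The forkhead core was found in 2.54% of all windows, in 2.67% of the ML-like ones and in 0 of the 92 LP-like ones. The shares in called genes were thus mostly close to that of all windows, and a match is a string of letters, not evidence of binding.

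Signalling genes known from hormone-sensing cells are set beside the 6.07% of all tested genes called on the ML-like side. The gene lists here and below were chosen with earlier results of these data known. A share above the background is therefore a description. Of 11 paracrine genes tested, 5 were higher in ML-like cells and none in LP-like cells. Beside Ptn and Wnt5a these were Wnt4, the Wnt ligand that acts downstream of progesterone (median 20.7 CPM in ML-like cells, no read in LP-like cells, log2 ratio at least 6.32), the chemokine gene Cxcl15 (median 138 CPM, at least 7.66) and Inhbb, an activin and inhibin subunit (5.40, 3.85 to 7.68). Tnfsf11, the gene of RANK ligand, had a read in 2 of 26 ML-like cells and 1 of 8 LP-like cells, and Calca, the calcitonin gene, reached 8860 CPM but was read in only 6 ML-like cells. Rspo1, a Wnt agonist, had a ratio in the other direction (-1.56), with medians of 0 CPM in ML-like and 49.6 CPM in LP-like cells. The same 5 genes were called without the cells that carry other markers.

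Of 11 transcription factors and nuclear receptors of hormone-sensing cells, 3 were higher in ML-like cells (background 6.07%). These were Tbx3, the orphan receptor gene Esrrb (at least 4.90) and Tfap2b (at least 6.70). The last 2 had reads in 10 and 12 ML-like cells and in no LP-like cell. Gata3, the luminal master regulator, was read in all 26 ML-like and all 8 LP-like cells, with a ratio of 1.08. Nfib was read in 25 and 8 cells, with medians of 974 and 2024 CPM. The study defined its mature luminal cluster on total pubertal and adult epithelial cells, clustered by set lists of basal and luminal genes. This cluster also holds the rule genes Prlr, Cited1, Foxa1, Areg, Stc2 and Ly6d, so the choice of cells favours its other members. Of 20 other genes that the study listed for it, 11 were higher in ML-like cells (background 6.07%). They included Plac8 (median 350 CPM against 0), the arginase gene Arg1 (61.4 against 0), Crym, a thyroid hormone-binding protein gene (78.6 against 0), and Upk3a, which was read in 11 of 26 ML-like cells at up to 3399.7 CPM and in no unclassed cell. The listed genes Mal2 and Cldn4 were read in most cells of both classes, with ratios of -0.09 and 0.72.

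Receptors and their relays differed gene by gene. Fgfr2, the receptor of FGF7 and FGF10, ran from 0 to 1940 CPM in ML-like cells (median 476) and from 0 to 41.9 CPM in LP-like cells (median 0), a log2 ratio of 5.52 (5.08 to 6.00). Insr, the insulin receptor, was read in 9 ML-like cells and no LP-like cell (at least 4.77), opposite to its substrate gene Irs2. These were the 2 called among 15 growth factor receptors and ligands (background 6.07%). Without the cells that carry other markers Erbb2 was also called higher in ML-like cells (at least 4.85) and Hbegf, an EGF receptor ligand, in LP-like cells (-2.40). Met and Igf1r had ratios of -2.89 and -2.59 but were read in 4 and 3 of 8 LP-like cells and did not meet the limit on shares. Of 11 genes of prolactin signalling, 3 were called higher in ML-like cells (background 6.07%). They included Stat5a, the main effector of the prolactin receptor (median 38.0 against 5.32 CPM, 2.35), and its feedback inhibitor Socs2 (2.42). Jak1 and Stat3 were read in nearly all cells of both classes. Socs2 was not called without the cells that carry other markers, and Jak2 was (3.49).

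Of 16 interferon response genes tested, 4 were called higher in ML-like cells (background 6.07%) and none in LP-like cells. Without the cells that carry other markers, 3 of 15 were called higher in ML-like cells (background 10.8%). Iigp1, an interferon-induced GTPase gene, ran from 0 to 3388 CPM in ML-like cells (median 193) and did not exceed 6.00 CPM in LP-like cells, a ratio of 8.15 (7.03 to 9.60). Stat2 and Irf9, which act in interferon-stimulated transcription, had ratios of at least 6.77 and of 2.86, with reads in 12 of the 26 ML-like cells each. Isg15 and Irf7 were read in 2 and 4 ML-like cells. MHC class I genes were read in all cells, with ratios of 0.20 for H2-K1, 0.60 for H2-D1 and 0.78 for B2m. Of 5 genes of antigen presentation, 1 was called (background 1.09%). This was the class II chaperone gene Cd74, higher in LP-like cells but at a median of 0.62 CPM and with reads in 3 of 8.

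Milk genes pointed to the LP-like side. The study's progenitor cluster holds the rule genes Kit, Cd14, Trf, Wfdc18, Muc15 and Spp1. It also holds Csn1s1, Csn1s2a, Csn2, Csn3, Btn1a1 and Lalba. The choice of cells therefore favours this direction, which is a description. All 10 tested had a ratio under 0, with a median of -2.49, and 3 were called (background 1.09%): Csn2, the beta-casein gene, Lalba, the alpha-lactalbumin gene, and Btn1a1, a protein of the milk fat globule. Csn2 measured 0 CPM in LP-like cells 17 and 25 and 1458, 2273, 3409, 3539, 22676 and 33104 CPM in the other 6. In ML-like cells it ran from 0 to 19476 CPM with a median of 0, so some ML-like cells were as high. Csn1s1 and Csn3 had medians of 8756 and 2789 CPM in LP-like cells and 0 and 5.04 CPM in ML-like cells, with ratios of -1.48 and -1.99. Mfge8, another globule protein gene, was at 0 in LP-like cell 3 and between 575 and 14718 CPM in the other 7, with a median of 172 CPM in ML-like cells and a ratio of -2.73. It was not called because 24 ML-like cells also had a read. Without the cells that carry other markers 2 of 9 milk genes were called (background 1.44%), Csn2 (-2.77) and Btn1a1 (-2.11), and the median of the list was -2.77.

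Of 11 other genes that the study listed for its progenitor cluster, 4 were called higher in LP-like cells (background 1.09%) and none in ML-like cells. The cluster also holds LP rule genes, so the choice of cells favours its other members. Plb1, a phospholipase gene, was read in all 8 LP-like cells (50.8 to 683 CPM) and in 17 ML-like cells (median 27.1 CPM, ratio -2.10). Muc1, a mucin of the apical surface, had a ratio of -4.04 and was read in 4 of 8 LP-like cells, at up to 6389 CPM in cell 17. Muc4 (-3.11) and Ano3 (-3.93) were also read in 4 LP-like cells. Plb1 (-1.22) and Muc4 (-0.37) were no longer called without the cells that carry other markers.

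Among 14 transcription factors known from progenitor or alveolar cells, none was called higher in LP-like cells (background 1.09%). Only 1 of them, Relb of the NF-kappaB family, was called higher in ML-like cells (at least 4.37, reads in 10 of 26). That share is near the background of 6.07%. Ehf, an ETS factor, had medians of 673 CPM in LP-like and 24.7 CPM in ML-like cells and a ratio of -2.28, but 16 ML-like cells had a read. Tcf7l2, a Wnt effector, was read at 833 to 2718 CPM in the 8 LP-like cells and at 1.78 to 1177 CPM in the 26 ML-like cells (medians 1542 and 298, ratio -1.99). Cebpb, a regulator of alveolar development, had medians of 94.1 and 15.2 CPM and a ratio of -1.88. Without the cells that carry other markers, Cebpb was called higher in LP-like cells (-2.52, reads in 6 of 6 and 12 of 22 cells) and Elf3, another ETS factor, in ML-like cells (6.18), and the ranges of Tcf7l2 no longer overlapped. Sox9, by contrast, had a ratio of 1.39 with medians of 618 CPM in ML-like and 130 CPM in LP-like cells.

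Secreted defence genes were divided. Of 11 tested, Lcn2 and Lbp, the lipopolysaccharide-binding protein gene (-2.54, reads in 4 of 8 LP-like cells), were higher in LP-like cells (background 1.09%) and Slpi in ML-like cells (6.07%). Without the cells that carry other markers Lbp was not called (-3.33, reads in 2 of 6 LP-like and 4 of 22 ML-like cells). The complement gene C3 had medians of 506 and 0 CPM and a ratio of -1.46, which became -3.26 and a call without the cells that carry other markers. In lipid synthesis 1 of 20 genes was called, a share near the background of 6.07%: Dgat2, which makes triglycerides (at least 5.67 in ML-like cells, reads in 9). Without the cells that carry other markers Scd2 (4.42) and Elovl5 (at least 5.89) were called as well, so 3 of 19 were called (background 10.8%). Scd1, the stearoyl-CoA desaturase gene, had medians of 556 CPM in LP-like and 13.5 CPM in ML-like cells and a ratio of -3.34, but 16 ML-like cells had a read. In glycolysis 1 of 16 was called, against 1.09% of all genes: the lactate dehydrogenase gene Ldhb, at a median of 8.63 CPM in LP-like cells. Pgam1 was called higher in ML-like cells (at least 3.39) without the cells that carry other markers. It was 1 of 15 glycolysis genes tested there, a share below the background of 10.8%.

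Keratin, stress and cell cycle genes were not called between the classes in all cells (background 6.07% for ML-like and 1.09% for LP-like). None of 9 keratins was called. Without the cells that carry other markers Krt6a was called (at least 6.25 in ML-like cells, reads in 7 of 22 and 0 of 6 cells). It was 1 of 8 keratins tested there, near the background of 10.8%. Krt8, Krt18 and Krt19 had ratios of -0.48, 0.32 and 0.86 with reads in 25 or 26 ML-like cells and all 8 LP-like cells. None of 14 immediate early genes was called, and Fos, Jun and Atf3, which cell dissociation can induce, had ratios of 0.11, 0.20 and 0.05. None of 20 cell cycle genes and none of 8 cyclin D and inhibitor genes was called, with Mki67 read in 7 of 26 ML-like and 3 of 8 LP-like cells. Lists this short may hold no called gene at these shares, so 0 calls do not show equal levels. The 20 cell cycle genes had a median ratio of 1.89 against 0.55 for all genes, with 16 over 0 and 4 under 0. Without the cells that carry other markers these medians were 3.67 and 0.94. Cdk1, Ccnb1 and Mcm5 had ratios of 3.89, 3.92 and 5.22 but reads in only 5 or 6 ML-like cells. Among 16 junction genes only Cldn10 was called higher in ML-like cells, near the background of 6.07%. The polarity gene Pard6b was called higher in LP-like cells (background 1.09%). Its ratio was -2.95, and it was not called without the cells that carry other markers. At 8 LP-like cells, a smaller difference in shares was not detectable, since 0 of 8 cells allows a share of up to 36.9%.

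**Figure D4:**
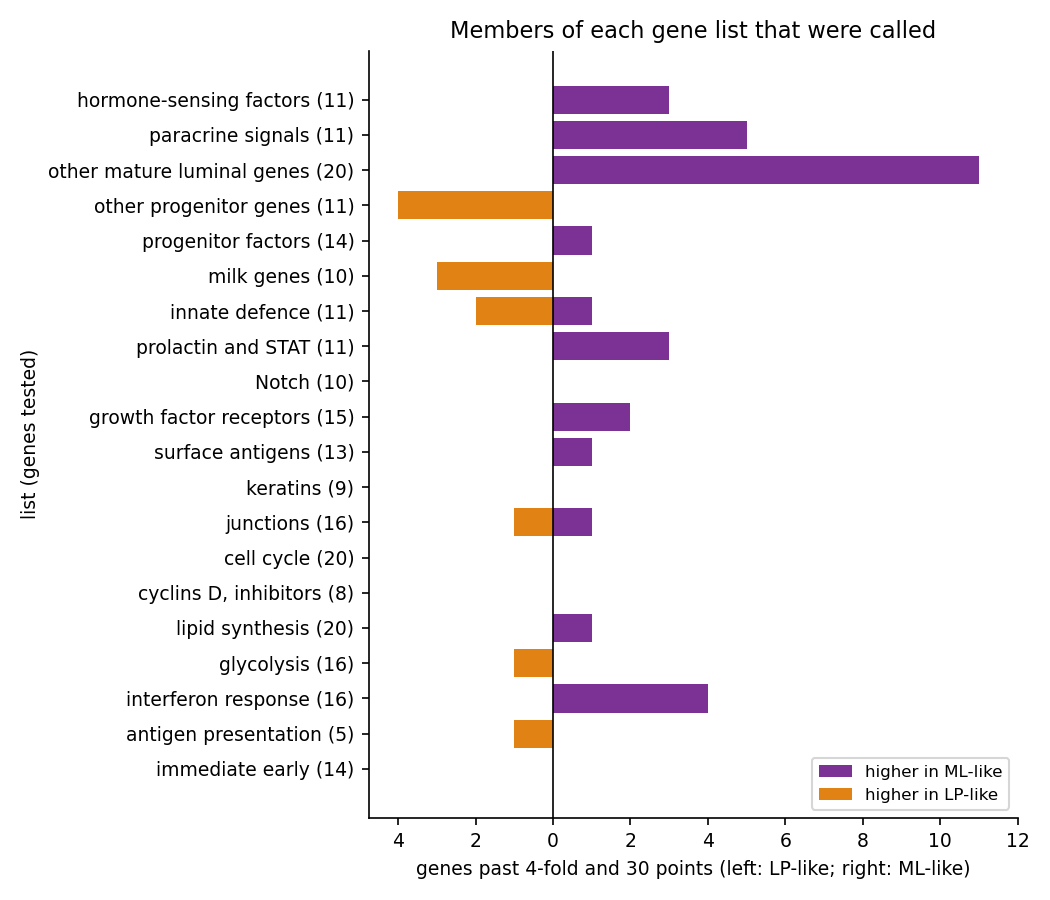
Bars give the number of genes in each list that passed 4-fold and 30 points, to the right for ML-like and to the left for LP-like cells, with the number of genes tested in brackets. The longest bars are the 11 of 20 genes from the study's mature luminal list and the 5 of 11 paracrine signals on the ML-like side, and the 4 of 11 progenitor genes and 3 of 10 milk genes on the LP-like side. The mature luminal, progenitor and milk lists hold genes from study clusters that also hold rule genes.

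Some genes moved with the 6 cells that carry markers of another type, of which both LP-like cells carry fibroblast markers. Ly6a, the gene of the surface antigen Sca1 used in luminal sorting, had a ratio of 1.24 and was not called, with a median of 372 CPM in ML-like and 0 in LP-like cells. Without the 6 cells its ratio was 7.54 and it was called. Jag1, a Notch ligand, went from 1.18 to 6.92 in the same way. It was then the only gene called of 8 Notch genes tested, near the background of 10.8%. In all cells none of 10 was called (background 6.07%). Among 13 surface antigens only Cd200, an immunoglobulin-family ligand, was called in all cells (5.55), near the background of 6.07%. Its median was 270 CPM in ML-like and 0 in LP-like cells. Without the 6 cells (background 10.8%) Cd200 was still called (5.62), and Prom1, the gene of CD133, was called as well (5.80).

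The summed level of the 6 fibroblast markers ran from 0 to 30572 CPM in ML-like cells (median 1.38) and from 0 to 15780 CPM in LP-like cells (median 0), and none of the 6 was called, although Dcn, a matrix proteoglycan gene read in 10 ML-like cells, had a ratio of 7.78 and was called once the 6 cells were left out. All 5 basal markers tested were also without a call, and the summed basal list ran from 0 to 11020 CPM in ML-like and from 0 to 523 CPM in LP-like cells, with medians of 0 and 29.6. Myh11 and Mylk, smooth muscle genes of basal cells, had no read in LP-like cells and were read in 1 and 2 ML-like cells, against 79 and 76 of 81 basal cells. Endothelial markers summed to at most 4.08 CPM in ML-like and 1.20 CPM in LP-like cells, and immune markers to at most 8.90 and 0 CPM. Of the erythroid markers Hba-a1 was called at 11.3 CPM in ML-like cells, a level close to a few reads per cell and shared with its near-identical copy Hba-a2, and of the adipocyte markers Fabp4 was called at 28.2 CPM in LP-like cells. The part of these markers in the gene differences was not tested beyond leaving the cells out.

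Seen without the rule genes, most unclassed cells read genes of both classes. The unclassed and basal cells did not take part in choosing the called genes, whereas the values of the ML-like and LP-like cells are a description. At 100000 reads, the 693 ML-like genes were read at a median of 53.2% in ML-like cells (21.8 to 71.6%), 9.67% in LP-like cells (3.61 to 14.9%), 46.5% in unclassed cells (11.8 to 61.6%) and 20.1% in basal cells. The 124 LP-like genes were read at 14.1% in ML-like cells (3.23 to 38.7%), 60.1% in LP-like cells (28.2 to 74.2%), 32.3% in unclassed cells (6.45 to 48.4%) and 18.5% in basal cells. Unclassed cells 10, 14, 24, 27, 30 and 43 read 46.5, 41.6, 47.9, 54.8, 32.3 and 61.6% of the ML-like genes, all above the LP-like range. The same cells read 32.3, 37.1, 29.0, 34.7, 31.5 and 48.4% of the LP-like genes, which is, except for cell 43, within the ML-like range. The low end of the LP-like range, 28.2%, was cell 17 with 1376 genes, and the next LP-like cell, 22, read 38.7%. Of these unclassed cells only cell 43, which carries markers of another type, read more than that. Cell 15, with 1475 genes, read 11.8% and 6.45%.

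The unclassed cells did not mix all genes alike. Outside cell 15, Wfdc2 measured 120, 179, 204, 514, 541 and 865 CPM and Ptn 986 to 2897 CPM, both within the ML-like range. Cell 15 had 0 CPM of Wfdc2 and 60.6 CPM of Ptn. Only ML-like cell 26, which carries fibroblast markers, was as low. Slpi was at 0 in 5 unclassed cells, at 56.9 CPM in cell 43 and at 2822 CPM in cell 15, so it was missing from cells that held Wfdc2 and Ptn. Lcn2 ran from 417 to 8015 CPM, within or above the LP-like range. Only cells 10 and 15, at 8015 and 3246 CPM, were above the ML-like range of 0 to 2474 CPM. Vdr stayed at 0 to 23.6 CPM in all but cell 14, with 281 CPM. Csn2 was at 0 in 4 of the 7 and at 11029 CPM in cell 14.

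**Figure D5:**
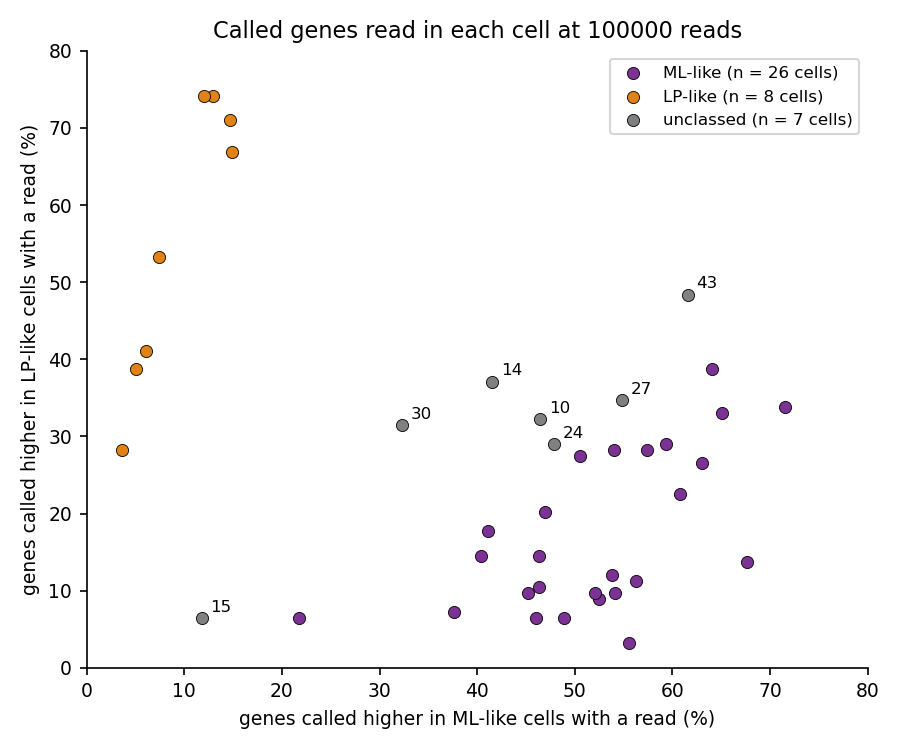
Each point is a cell, with the percent of the 693 ML-like genes (x axis) and of the 124 LP-like genes (y axis) that had a read at 100000 reads, for 26 ML-like, 8 LP-like and 7 unclassed cells (numbered). LP-like cells lie at 3.61 to 14.9% on the x axis, and 6 unclassed cells lie at 32.3 to 61.6% on the x axis and 29.0 to 48.4% on the y axis.

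The same rule was applied to the other cells of the series. Among 81 basal cells it found 1 ML-like and 3 LP-like cells and left 77 unclassed. Among 78 cells from pregnant mice it found 70 LP-like cells, 8 unclassed cells and no ML-like cell, so the ML-like and LP-like classes could not be compared in pregnancy. Of these 70 cells, 51 had at least 3 of the 10 listed basal markers at 10 CPM (median 8, range 0 to 10), as had 6 of the 8 unclassed cells, so the markers of most of them go against the LP name. In the adult, LP-like cells had at most 1 basal marker.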

How the data were processed

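The deposited files hold raw counts of read pairs per gene for each cell. Per the labels and methods, the authors mapped reads to mm10 with Subread 1.4.6 and counted them with featureCounts on RefSeq genes. Mitochondrial (15) and ribosomal (123) genes and the 1904 of 27179 identifiers without a current symbol were left out, as in the study; these took 8.35%, 2.07% and 1.53% of the reads of the 41 cells. Assigned reads per luminal cell ranged from 292 to about 1.1e+06, and cells under 100000 kept reads were dropped. CPM refers to kept reads. Counts were summed by class, scaled to CPM and compared as a log2 ratio with an exact conditional 95% interval; a class at 0 was set to 3 reads over the class. Shares of cells used counts thinned once to 100000 reads per cell with a fixed seed, with Clopper-Pearson intervals. A cell count of 1 sample per class allows no test. Named genes are the 12 largest log2 ratios in each direction among called genes with at least 100 CPM and a read in 75% of the cells of the higher class, and members of the gene lists. The rule, the classes and the lists were chosen with earlier results of these data known. Python 3.11.15 with numpy 2.4.6, pandas 2.3.3 and scipy 1.17.1 was used, and edgeR 4.0.16 and DESeq2 1.42.0 under R 4.3.3 for scale factors only. The comparison was tested on simulated data. Alternatives covered the rule, the read minimum, scaling, filters on low values and cells left out. An item of the gene lists is not reported here.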

Additional observations from a re-analysis of the deposited data

Results flagged for a closer look

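LP-like cell 17 had 34.4% mitochondrial reads, farther from the other 7 LP-like cells than the limit for a single outlying value among 8 (gap over range 0.597). Unclassed cell 15 had 32.7%, likewise far from the other 6 unclassed cells (gap over range 0.673). Both are the cells with fewer than 1500 genes. In all, 10 sets of per-cell values were examined in this way, and chance passes the limit in about 1 in 20. Without cell 17, 180 genes were higher in LP-like cells in place of 124.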

How the results depend on the processing

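No paired analysis was possible because the results come from no test and cell numbers only name cells. A rule difference of 3 genes gave 19 ML-like cells in place of 26, and 244 genes higher in LP-like cells in place of 124, with 88 of them shared. Without cells that carry markers of another type, 1131 genes were higher in ML-like cells and 7 genes did not overlap. Leaving out, gene by gene, the highest cell of the higher class left 73 genes higher in LP-like cells, 72 of them shared, and 679 in ML-like cells. Unthinned, ML-like cells had a median of 4828 genes. The causes were not tested, other than fewer cells by construction. TMM and median-of-ratios scaling gave 682 and 673 genes higher in ML-like cells, all among the 693, and 130 and 136 in LP-like cells. Leaving out each classed cell in turn (added after seeing the data) gave 664 to 878 genes higher in ML-like cells and 121 to 180 in LP-like cells. Of the 24 named genes, Emp2 alone changed direction, to 0.61, without cell 17 (0.61 to -3.10 over all cells left out), which is also its highest cell and the LP-like cell under 1500 genes. The other class sizes, genes per cell, unclassed and pregnancy values stayed within their limits. With 8 LP-like cells, low genes and small differences in shares were not detectable.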

Other observations

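When 6 cells that carry markers of another type were left out, 7 genes had CPM ranges that did not overlap between the 22 ML-like and 6 LP-like cells that remained, 4 higher in ML-like (0.0383% of genes tested) and 3 in LP-like cells (0.0288%); they were named after their values were seen. Beside Ptn and Wfdc2, Nek7, a kinase of mitosis and the inflammasome, ran from 204 to 3435 CPM in ML-like and from 2.47 to 151 CPM in LP-like cells, and the acyltransferase gene Mboat1 from 9.48 to 1254 and from 0 to 6.79 CPM. On the LP-like side, Tcf7l2 ran from 1317 to 2718 CPM against 1.78 to 1177 CPM in ML-like cells. Cd47, whose product signals to phagocytes, ran from 397 to 1472 CPM against 0 to 322 CPM. Mgst1, a microsomal glutathione transferase gene, ran from 1646 to 3885 CPM against 0 to 1554 CPM. These 3 genes were not called by the fold and share limits, because most ML-like cells had a read.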
